A study of Mus musculus with 4 samples.

Results

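The genes described here encode the proteins that fold, check and discard other proteins: the sensors and targets of the unfolded protein response (UPR) in the endoplasmic reticulum (ER), the ER folding machinery, and the heat shock chaperones of the cytosol and mitochondria. They are 36 named genes, taken by symbol from the 41543 gene symbols counted, and all 36 were abundant enough to be among the 16112 genes tested. RNA was measured in 4 libraries of E14TG2a, an established line of mouse ES (embryonic stem) cells, cultured with foetal calf serum and the cytokine LIF on gelatin. The control group and the KAT6A knockout (KO) group had 2 libraries each. The KO cells had been made in this line by CRISPR/Cas9 editing of the gene for KAT6A, a histone acetyltransferase of the MYST family. The labels do not say how many clones were used, what the controls had been exposed to, or if replicate libraries were grown as separate cultures, so the p-values cover the spread between these libraries alone, and that spread may be technical.

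Proteins that enter the ER are folded by the HSP70 protein BiP (Hspa5), the HSP90 protein GRP94 (Hsp90b1), sugar-binding chaperones and disulfide isomerases, and those that fail are sent back to the cytosol for degradation. When unfolded proteins accumulate, the sensors IRE1 (Ern1), PERK (Eif2ak3) and ATF6 raise the output of this machinery through the transcription factors XBP1, ATF4 and cleaved ATF6. In the cytosol, heat shock factor 1 (Hsf1) controls the HSP70, HSP90 and HSP40 genes in a separate response.

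Libraries held between 27494041 and 37354623 counts. The targeted gene Kat6a stood at 145 and 143 CPM (counts per 1e+06 counts of the library, its total adjusted by a scaling factor) in the controls. It stood at 242 CPM in the first library labelled KAT6A KO (KO 1 from here on) and at 86.4 CPM in the second (KO 2). The RNA level of the whole gene was thus above both controls in KO 1, while that of KO 2 was 0.601 times the control mean. Counts over the whole gene do not show the edit itself, so they neither bear out nor contradict the label of KO 1. Every direction below rests on these labels. ES cell markers were present in all libraries, with Pou5f1 at 610 and 622 CPM in the controls and 752 and 1010 CPM in the libraries labelled KO 1 and KO 2. Fold changes over all genes followed transcript GC content, from a median log2 fold change of -0.19 in the lowest GC quintile to 0.22 in the highest. Genes on chromosome 11 were lower as a whole, with 40.5% of its 1322 tested genes called lower.

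Of the 36 genes, 8 fell and none rose in the KO group (threshold of 0.05 on the p-value of the quasi-likelihood fit in edgeR, adjusted by Benjamini-Hochberg over all tested genes), where 8.57% of all tested genes were called lower and 5.76% higher. All 8 are among the 24 ER genes: Xbp1, Dnajb9, Dnajc3, Canx, Pdia3, Pdia4, P4hb and Sel1l. None of the 12 cytosolic and mitochondrial genes was called. At an unadjusted p under 0.05, 15 members were lower and 1, Hsph1, was higher, against 18.1% and 15.8% of all tested genes. DESeq2 and limma-voom called 10 and 9 members lower and none higher. The median log2 fold change was -0.29 over the ER genes (-0.23 with an offset for GC content), of which 22 lay below 0 and 2 above where 49.6% of all tested genes lay below, against 0.10 over the cytosolic and mitochondrial genes and 0.01 over all tested genes. The difference between the groups of genes was not tested, since genes are not replicates.

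Summed over the 24 ER genes, expression was 7343 and 7330 CPM in the controls against 5329 CPM in the library labelled KO 1 and 5791 CPM in the library labelled KO 2, or 0.726 and 0.789 times the control mean. Over the 12 cytosolic and mitochondrial genes it was 8500 and 8682 CPM in the controls and 9176 and 10216 CPM in the libraries labelled KO 1 and KO 2. The ER sum was thus below both controls and the other sum above both controls in each KO library, but Hsp90ab1 carried the difference of the second sum. Without Hsp90ab1 the sum of the other 11 genes was 2107 and 2071 CPM in the controls against 2061 and 2129 CPM in the libraries labelled KO 1 and KO 2, with overlapping groups. Within the ER sum, Canx and P4hb, both on chromosome 11, carried much of the difference. Canx had a mean of 1416 CPM in the controls and 825 and 752 CPM in the libraries labelled KO 1 and KO 2. For P4hb it was 970 CPM against 479 and 592 CPM. In bulk samples, fewer cells of a type and less RNA per cell cannot be told apart.

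**Figure D1:**
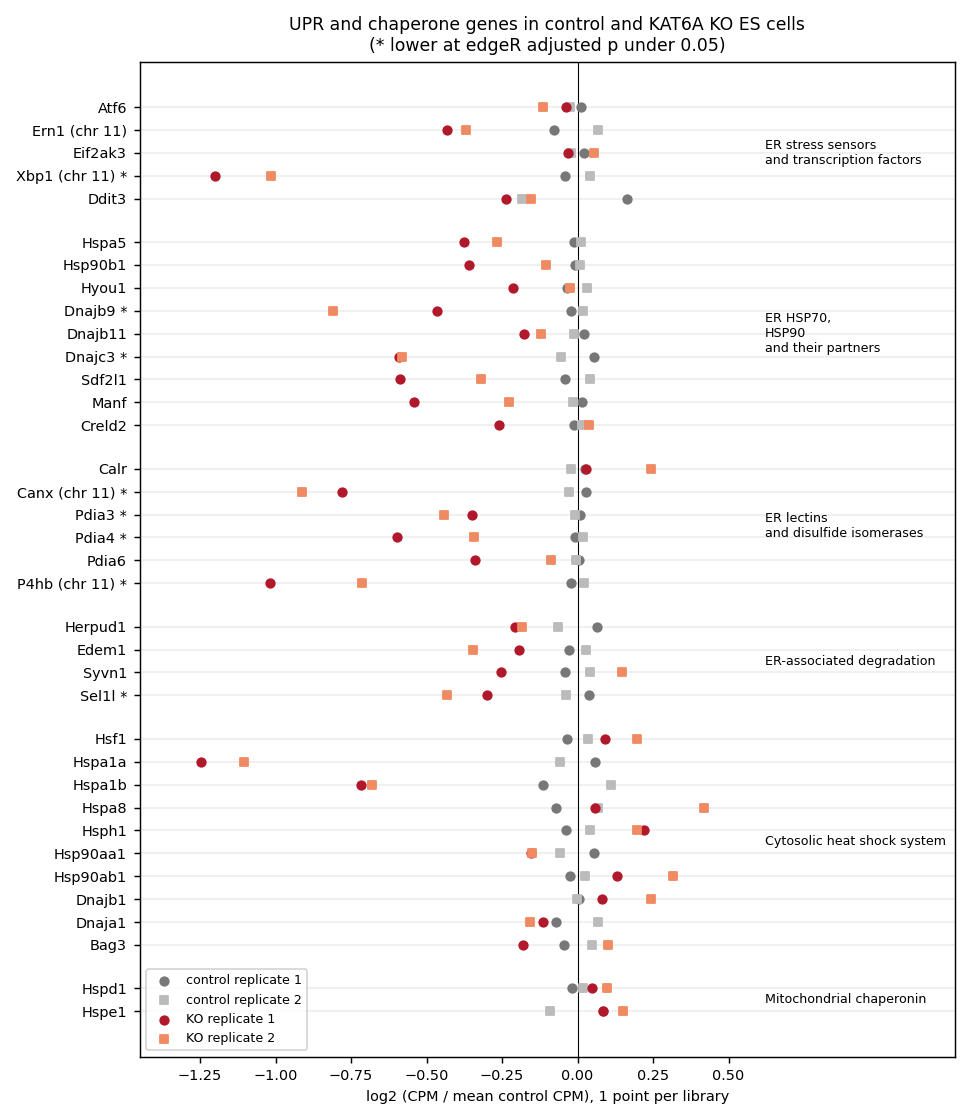
Each row is a gene and each point a library, placed at log2 of its CPM over the mean CPM of the 2 controls, with genes grouped by role, those on chromosome 11 marked and those called lower starred. In 18 of the 24 ER genes both KO libraries lie below both controls, as in 32.8% of all tested genes, and Calr is the ER gene with both above, as in 31.5% of all tested genes.

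Chromosome 11 holds 4 of the members, which bears on how their values are read. Xbp1, Ern1, Canx and P4hb lie on this chromosome, and 3 of them were called lower. Of the 32 members on other chromosomes 5 fell, all of them ER genes, where 5.71% of the 14790 tested genes off chromosome 11 were called lower. The median log2 fold change of the 20 ER genes off chromosome 11 was -0.22, against 0.04 over all tested genes off that chromosome. Relative to the median of chromosome 11, the log2 fold change was -0.65 for Xbp1, -0.40 for P4hb, -0.39 for Canx and 0.05 for Ern1, so that Ern1 stood at the level of its chromosome and the other 3 below it. The part of the chromosome in the falls of these genes was not tested.

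**Figure D2:**
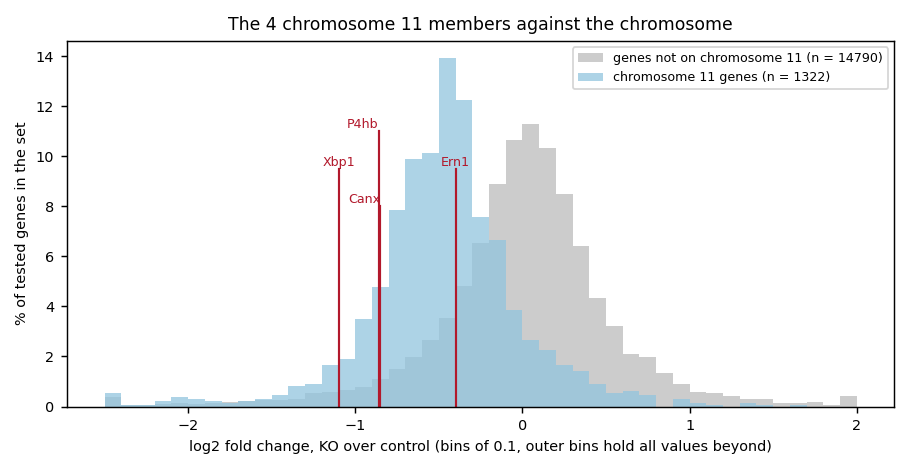
Histograms give the percentage of tested genes per bin of log2 fold change (KO over control) for the 1322 genes of chromosome 11 and the 14790 other genes, and red lines mark the 4 members on chromosome 11. Ern1 lies near the centre of the chromosome's distribution, and Canx, P4hb and Xbp1 lie in its lower part.

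The calls off chromosome 11 were mostly lost in fits without 1 control library, where the lone control is assumed to vary like the KO pair. Calls over all tested genes were fewer in these fits too. In the fit of all libraries the log2 fold changes of these 5 genes ran from -0.37 for Sel1l to -0.62 for Dnajb9. Without control replicate 1 the members called lower were Xbp1, Canx and P4hb, 3 in all, and without control replicate 2 there were 4, with Dnajc3 added. The log2 fold changes of the 5 called members off chromosome 11 lay between -0.34 and -0.65 in these fits, and the edgeR adjusted p of Dnajc3 was 0.124 without control replicate 1. Without control replicate 1 and without control replicate 2, in that order, the edgeR adjusted p was 0.116 and 0.164 for Dnajb9, 0.3 and 0.275 for Pdia3, 0.138 and 0.185 for Pdia4, and 0.402 and 0.272 for Sel1l. Leaving out the library labelled KO 1 or the library labelled KO 2 raised the calls in both directions, among the members and among all tested genes. In these fits the lone KO library is assumed to vary like the control pair.

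Markers of primitive and parietal endoderm, cells that secrete much basement membrane, were also lower in the KO libraries. All 12 markers lay below both controls in both KO libraries, as did 32.8% of all tested genes. Of these markers 9 fell, where 8.57% of all tested genes were called lower. The summed level of the 12 markers was 5122 and 4893 CPM in the controls. It was 1215 CPM in the library labelled KO 1 and 2393 CPM in the library labelled KO 2. Sparc, the largest term of this sum in the controls, lies on chromosome 11. It had 1533 and 1469 CPM in the controls and 365 and 565 CPM in the libraries labelled KO 1 and KO 2. Of the 11 markers off chromosome 11, 8 fell, beside 5.71% of all tested genes off it. Gata6, an endoderm transcription factor, had 34.7 CPM in each control and 6.21 and 12.0 CPM in the libraries labelled KO 1 and KO 2. The ES cell marker list had 3 of 8 members called higher and none lower, beside 5.76% and 8.57% of all tested genes. Its summed levels were 4440 and 4385 CPM in the controls and 5739 and 5937 CPM in the libraries labelled KO 1 and KO 2. Fibroblast markers summed to between 21.7 and 30 CPM in every library, Lum was at 0 in all of them, and none of the 4 tested was called by edgeR, DESeq2 or limma-voom (1 was higher at an unadjusted p under 0.05). The part of these cell types in the lower ER genes was not tested.

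Promoters of ER chaperone genes are known for the ER stress response element (ERSE), the site through which ATF6 and XBP1 act together with the factor NF-Y. RefSeq windows on GRCm38.p6, from 250 bases before to 50 bases after the start, were held for 29 of the 36 genes. The ERSE was searched as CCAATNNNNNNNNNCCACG on both strands, and it was found in 8 of these 29 genes (27.6%), against 0.119% of all 32851 windows. The 8 were Hspa5, Hsp90b1, Dnajc3, Creld2, Calr, Canx, Pdia6 and Syvn1. Their median log2 fold change was -0.22, and 2 of them, Canx and Dnajc3, were called lower. Of all 22 tested genes with an ERSE in a window, members included, 4 were called lower and 3 higher. Over all tested genes, 8.57% were called lower and 5.76% higher. The range over the 8 members ran from Canx at -0.85 to Calr at 0.14, so genes with the same element in this window had different values. Canx lies on chromosome 11, and relative to the median of that chromosome it was at -0.39. A shorter element, ERSE-II (ATTGG and CCACG with 1 base between them, both strands), was found in Herpud1 and Dnajb11 (0.0365% of all windows), and the UPR element searched as TGACGTGG was found in none of the 29 and in 0.676% of all windows. A match is a description of the sequence and not evidence of binding. The 220 bases before the start are shown for 5 genes with the ERSE in capitals, chosen to span the range of fold changes, and for Herpud1 with ERSE-II in capitals. Hsp90b1 carries the ERSE on each strand. GENCODE M21 also places the first base of some transcripts inside the stretches of Hspa5, Hsp90b1 and Calr.
Hspa5 (chr2:34771870-34772089, plus strand): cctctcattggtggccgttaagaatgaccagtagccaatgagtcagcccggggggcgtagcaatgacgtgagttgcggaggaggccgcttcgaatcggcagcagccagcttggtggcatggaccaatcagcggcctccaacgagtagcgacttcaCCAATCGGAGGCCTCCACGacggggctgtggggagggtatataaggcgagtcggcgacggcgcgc
Hsp90b1 (chr10:86705445-86705664, minus strand): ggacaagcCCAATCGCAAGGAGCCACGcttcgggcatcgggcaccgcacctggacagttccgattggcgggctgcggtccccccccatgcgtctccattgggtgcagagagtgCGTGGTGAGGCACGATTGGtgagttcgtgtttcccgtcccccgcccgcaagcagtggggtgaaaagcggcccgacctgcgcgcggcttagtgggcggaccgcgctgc
Dnajc3 (chr14:118937712-118937931, plus strand): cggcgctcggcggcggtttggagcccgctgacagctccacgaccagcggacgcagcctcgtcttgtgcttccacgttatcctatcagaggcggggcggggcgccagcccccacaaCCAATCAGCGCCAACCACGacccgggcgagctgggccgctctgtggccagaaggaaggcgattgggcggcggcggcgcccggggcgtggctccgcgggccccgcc
Canx (chr11:50325674-50325893, minus strand): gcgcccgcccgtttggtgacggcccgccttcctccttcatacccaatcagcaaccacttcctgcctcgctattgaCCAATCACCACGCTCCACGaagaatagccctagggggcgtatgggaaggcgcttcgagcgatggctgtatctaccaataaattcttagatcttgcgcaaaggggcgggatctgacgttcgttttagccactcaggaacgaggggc
Calr (chr8:84846932-84847151, minus strand): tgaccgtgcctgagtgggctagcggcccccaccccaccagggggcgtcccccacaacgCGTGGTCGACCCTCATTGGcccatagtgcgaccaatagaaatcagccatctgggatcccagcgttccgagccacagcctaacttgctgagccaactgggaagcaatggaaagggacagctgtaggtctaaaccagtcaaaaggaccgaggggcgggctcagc
Herpud1 (chr8:94386209-94386428, plus strand): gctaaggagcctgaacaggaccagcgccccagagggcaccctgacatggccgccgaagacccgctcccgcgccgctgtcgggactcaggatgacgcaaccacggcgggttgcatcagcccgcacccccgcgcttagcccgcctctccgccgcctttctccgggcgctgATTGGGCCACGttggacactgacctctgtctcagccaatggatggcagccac

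The series title concerns recruitment of KAT6A to unmethylated CpG islands, and the promoter windows of these genes were mostly rich in CpG. Of the 29 genes with a window, 26 (89.7%) had an observed over expected CpG ratio above 0.6 and a GC content above 50%, against 64% of the 11975 tested genes with a window. The 3 that missed these limits were Xbp1 at a ratio of 0.535, Hspa1a at 0.542 and Hspa1b at 0.577. Binding of KAT6A and methylation were not measured in the files used here.

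Among the sensors and transcription factors of the UPR, Xbp1 fell and none of the other 4 genes was called. Xbp1 encodes the transcription factor whose mRNA is spliced by IRE1 when the ER is stressed, and it lies at 5520659 to 5525893 on chromosome 11 (GRCm38, GENCODE M21). Its level was 92.5 and 98.0 CPM in the controls and 41.5 and 47.1 CPM in the libraries labelled KO 1 and KO 2. The KO values were 0.436 and 0.495 times the control mean, and the groups did not overlap. The log2 fold change was -1.10 ± 0.10 (SE), 2.15-fold lower, with an edgeR adjusted p of 0.00614. The counts are per gene and do not separate spliced from unspliced Xbp1.

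Ern1, which encodes the sensor IRE1 that splices Xbp1, had 31.1 and 34.4 CPM in the controls and 24.3 and 25.4 CPM in the libraries labelled KO 1 and KO 2. Both KO values were below both controls, but the log2 fold change of -0.40 ± 0.11 (SE) missed the threshold (edgeR adjusted p = 0.057). Ern1 was called with GC content as an offset (edgeR adjusted p = 0.0393) and without a low-count filter (0.0326). Eif2ak3, the gene of the sensor kinase PERK, had 58.3 and 56.5 CPM in the controls and 56.2 and 59.6 CPM in the libraries labelled KO 1 and KO 2, with overlapping groups and a log2 fold change of 0.01 ± 0.09 (SE, edgeR adjusted p = 0.936). Atf6, the gene of the membrane-bound sensor that becomes a transcription factor after cleavage, had 119 and 116 CPM in the controls and 115 and 109 CPM in the libraries labelled KO 1 and KO 2. Its log2 fold change was -0.07 ± 0.08 (SE, edgeR adjusted p = 0.585), and it turned to 0.10 with a GC-content offset. Ddit3, which encodes CHOP, the factor that links long ER stress to cell death, was low throughout, at 9.88 and 7.77 CPM in the controls and 7.49 and 7.93 CPM in the libraries labelled KO 1 and KO 2. These groups overlapped, and the controls differed from each other more than the KO libraries did.

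Of the 9 genes for the lumenal HSP70 and HSP90 proteins and their partners, 2 fell, beside 8.57% of all tested genes. Both are J-domain partners, and the other 7 were not called. Dnajc3 (p58IPK), which delivers unfolded proteins to BiP and lies at 118937976 to 118981697 on chromosome 14, had 76.8 and 71.1 CPM in the controls and 49.0 and 49.4 CPM in the libraries labelled KO 1 and KO 2. The KO libraries were nearly equal and both were below the controls, with a log2 fold change of -0.59 ± 0.09 (SE, edgeR adjusted p = 0.0147), or -0.39 under the GC-content offset. Dnajb9 (ERdj4), a J-domain partner of BiP and a classical target of XBP1, had 30.7 and 31.6 CPM in the controls and 22.6 and 17.8 CPM in the libraries labelled KO 1 and KO 2. It lies at 44205559 to 44210326 on chromosome 12, and its log2 fold change was -0.62 ± 0.14 (SE, edgeR adjusted p = 0.0361).

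Hspa5, the gene of BiP and the most widely used readout of the UPR, had 875 and 891 CPM in the controls and 681 and 734 CPM in the libraries labelled KO 1 and KO 2. The KO values were 0.771 and 0.831 times the control mean, with no overlap between the groups. The log2 fold change of -0.32 ± 0.08 (SE) missed the threshold narrowly (edgeR adjusted p = 0.0521). It was called by DESeq2 (adjusted p = 0.0351) and limma-voom (adjusted p = 0.0406), and its adjusted p over all alternatives run ran up to 0.478. Hsp90b1, the gene of GRP94, had 834 and 843 CPM in the controls against 653 CPM in the library labelled KO 1 and 780 CPM in the library labelled KO 2. Its log2 fold change was -0.23 ± 0.11 (SE, edgeR adjusted p = 0.185). With a GC-content offset the edgeR adjusted p of Hsp90b1 was 0.994 and its log2 fold change rounded to 0.00. The ratio of these genes, the main HSP90 and HSP70 of the ER, was almost even: Hsp90b1 made up 48.8% and 48.6% of their summed counts in the controls, against 49% in the library labelled KO 1 and 51.5% in the library labelled KO 2.

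The other partners showed the same difference between the KO libraries. Manf, a secreted ER stress protein, had 105 and 103 CPM in the controls against 71.4 CPM in the library labelled KO 1 and 88.9 CPM in the library labelled KO 2. Sdf2l1, which works with the J-domain protein Dnajb11, had 29.9 and 31.7 CPM in the controls against 20.5 CPM in the library labelled KO 1 and 24.7 CPM in the library labelled KO 2. Both stood below the controls in each KO library, and both missed the threshold (edgeR adjusted p = 0.0787 for Manf and 0.065 for Sdf2l1). Sdf2l1 was called by DESeq2 (adjusted p = 0.0472), under the GC-content offset (0.0184) and without a low-count filter (0.0266), and Manf without that filter (0.0255). Dnajb11, a further J-domain partner of BiP, had a log2 fold change of -0.15. Hyou1, an ER relative of HSP70 that acts as nucleotide exchange factor for BiP, and Creld2, a disulfide isomerase-like protein, had log2 fold changes of -0.12 and -0.10 with overlapping groups. The value of Creld2 was 1.03 times the control mean in the library labelled KO 2.

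The lectin chaperones and disulfide isomerases held the largest share of calls, 4 of 6 lower, beside 8.57% of all tested genes. Off chromosome 11 it was 2 of 4, beside 5.71% of all tested genes off that chromosome. This role also held the ER gene that lay highest. Canx, the gene of the membrane-bound lectin chaperone calnexin at 50293961 to 50325673 on chromosome 11, had 1443 and 1389 CPM in the controls and 825 and 752 CPM in the libraries labelled KO 1 and KO 2. Its log2 fold change was -0.85 ± 0.09 (SE), 1.80-fold lower, with an edgeR adjusted p of 0.00808. Calr, the gene of the soluble counterpart calreticulin on chromosome 8, had 594 and 575 CPM in the controls and 595 and 691 CPM in the libraries labelled KO 1 and KO 2. The library labelled KO 1 was at the level of control replicate 1, and the log2 fold change was 0.14 ± 0.10 (SE, edgeR adjusted p = 0.369). These partners in the same folding cycle thus had values of opposite sign, though Calr was not called. Relative to the median of its own chromosome, Canx was at -0.39 and Calr at 0.05. The difference between these genes was not tested.

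P4hb, the gene of the founding protein disulfide isomerase PDI at 120560298 to 120573253 on chromosome 11, had 956 and 984 CPM in the controls and 479 and 592 CPM in the libraries labelled KO 1 and KO 2. Its log2 fold change was -0.86 ± 0.12 (SE), 1.81-fold lower, with an edgeR adjusted p of 0.0118. Pdia3 (ERp57), the isomerase that works with calnexin and calreticulin, lies at 121413775 to 121438687 on chromosome 2. It had 628 and 620 CPM in the controls and 490 and 459 CPM in the libraries labelled KO 1 and KO 2, 1.31-fold lower (edgeR adjusted p = 0.029). Pdia4 (ERp72), at 47796141 to 47813430 on chromosome 6, had 155 and 158 CPM in the controls and 103 and 123 CPM in the libraries labelled KO 1 and KO 2, 1.38-fold lower (edgeR adjusted p = 0.0372). Pdia6 had 406 and 404 CPM in the controls against 320 CPM in the library labelled KO 1 and 381 CPM in the library labelled KO 2, and it was not called (edgeR adjusted p = 0.212). For all of these isomerases both KO libraries lay below both controls, as in 32.8% of all tested genes.

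Of the genes for ER-associated degradation, which moves misfolded proteins out of the ER, Sel1l fell. It encodes the adaptor of the HRD1 ubiquitin ligase and lies at 91806043 to 91849157 on chromosome 12. It had 120 and 114 CPM in the controls and 95.1 and 86.7 CPM in the libraries labelled KO 1 and KO 2, with a log2 fold change of -0.37 ± 0.09 (SE, edgeR adjusted p = 0.0438). The call ended with library size scaling alone and with upper quartile scaling (edgeR adjusted p = 0.0505 and 0.0566). Syvn1, the gene of the ligase HRD1 itself, had 51.8 and 54.8 CPM in the controls against 44.7 CPM in the library labelled KO 1 and 59.0 CPM in the library labelled KO 2, on either side of the controls. Edem1, which takes misfolded glycoproteins towards degradation, and Herpud1, which organises the ligase complex, had log2 fold changes of -0.27 and -0.19, with no overlap between the groups and no call (edgeR adjusted p = 0.102 and 0.286).

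The cytosolic heat shock genes showed no call in either direction among 10, with 5 fold changes above 0 and 5 below. At an unadjusted p under 0.05, Hsph1 was higher and Hspa1a and Hspa1b were lower, and neither DESeq2 nor limma-voom called any of the 10. Hsp90ab1, the constitutive cytosolic HSP90, was the most abundant member. It had 6393 and 6611 CPM in the controls and 7115 and 8087 CPM in the libraries labelled KO 1 and KO 2. Both KO values were above both controls, and the log2 fold change was 0.23 ± 0.10 (SE, edgeR adjusted p = 0.168). The more inducible form Hsp90aa1 had 935 and 865 CPM in the controls and 808 and 811 CPM in the libraries labelled KO 1 and KO 2, below both controls (log2 fold change -0.15 ± 0.08 SE, edgeR adjusted p = 0.25). Hsp90aa1 thus made up 12.8% and 11.6% of the joint counts of these genes in the controls, and 10.2% and 9.11% in the libraries labelled KO 1 and KO 2. The exact binomial 95% intervals, which cover counting error only, were 11.4% to 11.7% for control replicate 2 and 10.1% to 10.3% for the library labelled KO 1, the closest pair across the groups. They were 12.6% to 12.9% for control replicate 1 and 9% to 9.23% for the library labelled KO 2. Libraries of the same group were thus also apart, so these intervals do not measure a difference between the groups. Of the 50-base stretches of Hsp90aa1 transcripts, 47.5% also occur in transcripts of other annotated genes, mostly pseudogenes, so its count may have lost or gained reads.

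The strictly inducible HSP70 genes were close to silent. Hspa1a, at 34969190 to 34972156 on chromosome 17, was counted 26 and 25 times in the controls but 9 times in each KO library, or 0.732 and 0.675 CPM against 0.296 and 0.327 CPM. Its neighbour Hspa1b, at 34956436 to 34959238, had 3.49 and 4.08 CPM in the controls and 2.30 and 2.36 CPM in the libraries labelled KO 1 and KO 2. Both genes were below the controls in each KO library, and both missed the threshold (edgeR adjusted p = 0.0746 and 0.0647). Hspa1b was called with GC content as an offset (edgeR adjusted p = 0.0345) and without a low-count filter (0.0473). They are near-identical copies, with 60.3% and 62.3% of their 50-base stretches found in other genes and promoter windows that are 98.7% identical, so the division of reads between them is uncertain. Hspa8, the constitutive HSP70, had 78.3 and 86.3 CPM in the controls and 85.6 and 110 CPM in the libraries labelled KO 1 and KO 2, with overlapping groups. For Hspa8, 38.6% of the 50-base stretches occur in other genes, so its level may be underestimated.

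The heat shock factor gene and the remaining cytosolic partners were not called either. Hsf1 had 45.9 and 48.1 CPM in the controls and 50.1 and 53.9 CPM in the libraries labelled KO 1 and KO 2 (log2 fold change 0.15, edgeR adjusted p = 0.317, and a log2 value of -0.01 under the GC-content offset). Hsph1 (HSP110), a nucleotide exchange factor of HSP70, had 262 and 277 CPM in the controls and 313 and 308 CPM in the libraries labelled KO 1 and KO 2, above both controls. It was not called (log2 fold change 0.20 ± 0.08 SE, edgeR adjusted p = 0.132), but it was once an offset for GC content was added (edgeR adjusted p = 0.0434). Dnajb1 (HSP40), a J-domain protein induced by heat, had a log2 fold change of 0.16. The J-domain protein Dnaja1 had -0.13, and the HSP70 co-chaperone Bag3, which directs clients to autophagy, had -0.03.

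The mitochondrial chaperonin genes Hspd1 (HSP60) and Hspe1 (HSP10) sit head to head on chromosome 1 and had small positive values. Hspd1 had 476 and 488 CPM in the controls and 498 and 516 CPM in the libraries labelled KO 1 and KO 2, a log2 fold change of 0.07 ± 0.08 (SE, edgeR adjusted p = 0.558). Hspe1 had 106 and 93.9 CPM in the controls and 106 and 111 CPM in the libraries labelled KO 1 and KO 2, a log2 fold change of 0.12 ± 0.09 (SE, edgeR adjusted p = 0.414). Other annotated genes hold 39.7% of the 50-base stretches of Hspd1 and 18.4% of those of Hspe1, so both counts may have lost or gained reads. Their shared promoter carries the heat shock element, searched as GAANNTTCNNGAA on both strands, which was found in 0.603% of all windows and in Hspd1, Hspe1 and Hsph1 among the 29 genes. Overlapping matches on each strand are in capitals in the 220 bases before the start of Hspe1, shown because the pair uses the same stretch in opposite directions.
Hspe1 (chr1:55087928-55088147, plus strand): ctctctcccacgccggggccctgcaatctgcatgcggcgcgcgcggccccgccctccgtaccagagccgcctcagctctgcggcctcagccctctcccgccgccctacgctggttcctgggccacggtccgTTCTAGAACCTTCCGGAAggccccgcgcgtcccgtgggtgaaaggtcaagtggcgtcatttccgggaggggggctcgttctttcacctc

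Levels per exon length ranked the genes by abundance. In CPM per kb of exon, Hsp90ab1 stood first at 2132 and 2204 in the controls, 6.39 times the mean of P4hb at 334 and 344. Canx, Hsp90aa1, Hspa5, Hsp90b1, Calr, Pdia3 and Hspd1 followed, from 307 and 296 for Canx down to 180 and 185 for Hspd1. Hspa5 and Hsp90b1 overlapped in the controls at 207 and 211 against 207 and 209. Ddit3, Ern1, Hspa1b and Hspa1a were lowest, with Hspa1a at 0.247 and 0.227. In the KO libraries 30 of the 36 genes kept within 3 places of their control rank. Calr moved from place 7 to place 2, while P4hb moved from 2 to 5, Canx from 3 to 7 and Xbp1 from 18 to 22. Of the 35 pairs of neighbours in the control order, 8 overlapped between control libraries.

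**Figure D3:**
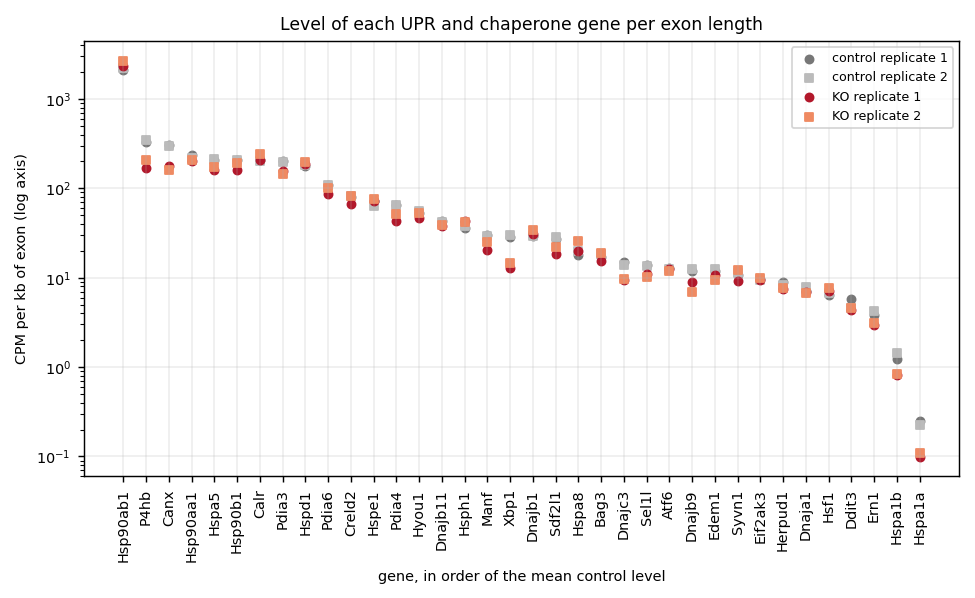
Each point is a library, at its CPM per kb of annotated exon on a log axis, with genes in order of their mean control level. Hsp90ab1 stands at 2132 or above in every library and Hspa1a at 0.247 or below, and the red KO points of P4hb, Canx and Xbp1 lie under the grey control points.

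The KO libraries differed more from each other than the controls did, for these genes as for all. The median absolute log2 difference between replicates over the 36 genes was 0.06 in the controls and 0.14 in the KO libraries, against 0.08 and 0.23 over all tested genes. In the library labelled KO 2, 28 of the 36 genes were higher than in the library labelled KO 1. In control replicate 2, 20 of the 36 were higher than in control replicate 1. The median log2 ratio of the 36 genes to the control mean was -0.25 in the library labelled KO 1 and -0.15 in the library labelled KO 2. Over all tested genes it was -0.00 and -0.01, in that order. Between the library labelled KO 2 and the library labelled KO 1 the log2 difference ran from -0.35 for Dnajb9 to 0.40 for Syvn1. Exons of some members overlap those of other genes on the opposite strand, over 10.3% of the exon length for Hsp90b1, 7.05% for Dnaja1 (with Smu1) and 7.6% for Hspe1 (with Hspd1). The library kit keeps the strand, but the sources used here do not give the strand setting of the counting.

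Other genes of the same pathways, not members of the 36, were read from the same fit. Of 72 tested genes in 3 further ER lists, 12 fell and none rose, where 8.57% of all tested genes were called lower and 5.76% higher, with a median log2 fold change of -0.11. Off chromosome 11 it was 9 of 67, where 5.71% of all tested genes were called lower. At an unadjusted p under 0.05, 28 were lower and 3 higher, and DESeq2 and limma-voom called 16 and 14 lower and none higher. Among other ER folding enzymes 5 of 27 fell: the thioredoxin-related Tmx1 (-0.70) and Tmx3 (-0.70), the isomerase gene Pdia5 (-0.53), and the J-domain genes Dnajc10 (-0.47) and Dnajc1 (-0.45). Among other degradation genes 4 of 23 fell. Derl2, a channel component (-1.06), Erlec1, a lectin (-0.86), and Nploc4, a cofactor of the segregase VCP (-0.57), were among them, and these all lie on chromosome 11. Among translocon and glycosylation genes 3 of 22 fell, namely Ssr1 of the translocon-associated complex (-0.91) and the signal peptidase genes Spcs3 (-0.50) and Spcs2 (-0.42). Without control replicate 1 the edgeR adjusted p was 0.168 for Dnajc10, 0.277 for Pdia5, 0.481 for Dnajc1, 0.0882 for Spcs3 and 0.214 for Spcs2. Without control replicate 2 it was 0.16 for Dnajc10, 0.155 for Pdia5, 0.35 for Dnajc1, 0.0856 for Nploc4, 0.146 for Spcs3 and 0.245 for Spcs2. Under the GC-content offset Dnajc10 was at -0.24 (edgeR adjusted p = 0.0737), Spcs3 at -0.20 (0.104) and Dnajc1 at -0.36 (0.0655), all not called, while Tmx1 at -0.42 and Tmx3 at -0.35 were called. The call of Ssr1 ended under the GC-content offset, all 3 other scalings, both other filters and the fit without chromosome 11 (edgeR adjusted p from 0.051 to 0.282), and leaving out the library labelled KO 1 moved it to -0.57. Tmx3 and Pdia5 lost their calls with the filter of 1 CPM in 2 libraries (edgeR adjusted p = 0.0501 and 0.0508) and without chromosome 11 (0.0531 and 0.0536). Dnajc1 lost its call under all 3 other scalings and without chromosome 11 (edgeR adjusted p from 0.0517 to 0.0599), and Pdia5 under upper quartile scaling (0.0536).

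Other UPR signalling genes went both ways, with 2 of 16 higher and 3 lower, beside the 5.76% and 8.57% of all tested genes. Atf4, the transcription factor translated when PERK is active and also under amino acid shortage, had 242 and 231 CPM in the controls and 411 and 379 CPM in the libraries labelled KO 1 and KO 2. It rose, with a log2 fold change of 0.74 ± 0.09 (SE, edgeR adjusted p = 0.00933). Atf3, a stress-induced factor often placed downstream of ATF4, had 39.2 and 39.3 CPM in the controls and 5.88 and 16.8 CPM in the libraries labelled KO 1 and KO 2, a fall of -1.80 ± 0.41 (SE, edgeR adjusted p = 0.0377). The ER-anchored factors Creb3l1 (0.46) and Creb3l2 (-0.92) rose and fell, and the stress kinase gene Map3k5 fell (-0.67). Without control replicate 1 and without control replicate 2 the edgeR adjusted p was 0.352 and 0.317 for Creb3l1 and 0.209 and 0.0926 for Map3k5. Creb3l1 was at 0.25 with GC content as an offset (edgeR adjusted p = 0.118), and its adjusted p was 0.0732 without chromosome 11. Atf3 was not called by DESeq2 (adjusted p = 0.0544), without a low-count filter (edgeR adjusted p = 0.327) or without chromosome 11 (0.0513), and the log2 fold change of Atf3 ran from -1.23 without the library labelled KO 1 to -2.74 without the library labelled KO 2. Atf4 was called under every alternative run.

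Among other cytosolic chaperones 4 of 22 fell and none rose, beside 8.57% and 5.76% of all tested genes, and off chromosome 11 it was 2 of 20, beside 5.71% called lower. These were Dnajc7 (-0.62) and the HSP110-type Hspa4 (-0.56) on chromosome 11, the related Hspa4l (-0.73) and the small heat shock gene Cryab (-1.11). At an unadjusted p under 0.05, 6 of this list were lower and 3 higher, and DESeq2 and limma-voom called 5 and 4 lower and none higher. Of 18 HSP90 co-chaperones, BAG proteins and heat shock factors, Bag6 rose (0.43), and Hsf2 (-0.50), Ptges3 (-0.52) and Bag2 (-0.67) fell. Cct4 on chromosome 11 was the member called lower (-0.65) of 14 genes of the TRiC chaperonin and prefoldin, with none higher, and the unadjusted p, DESeq2 and limma-voom gave the same counts. None of 12 other mitochondrial chaperone and protease genes was called in edgeR, DESeq2 or limma-voom, and 2 were higher at an unadjusted p under 0.05. The most abundant of these, Hspa9, had a log2 fold change of 0.20 (edgeR adjusted p = 0.142). Without control replicate 1 and without control replicate 2 the edgeR adjusted p was 0.0569 and 0.12 for Hspa4, 0.119 and 0.067 for Hspa4l, 0.279 and 0.228 for Bag6, 0.109 and 0.187 for Hsf2, 0.0837 and 0.102 for Ptges3, and 0.2 and 0.32 for Bag2. Under the GC-content offset Hsf2 was at -0.12 (edgeR adjusted p = 0.391) and Bag6 at 0.28 (0.0506), both not called, while Ptges3 at -0.30 was called. Without chromosome 11 the edgeR adjusted p of Bag6 was 0.0525.

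**Figure D4:**
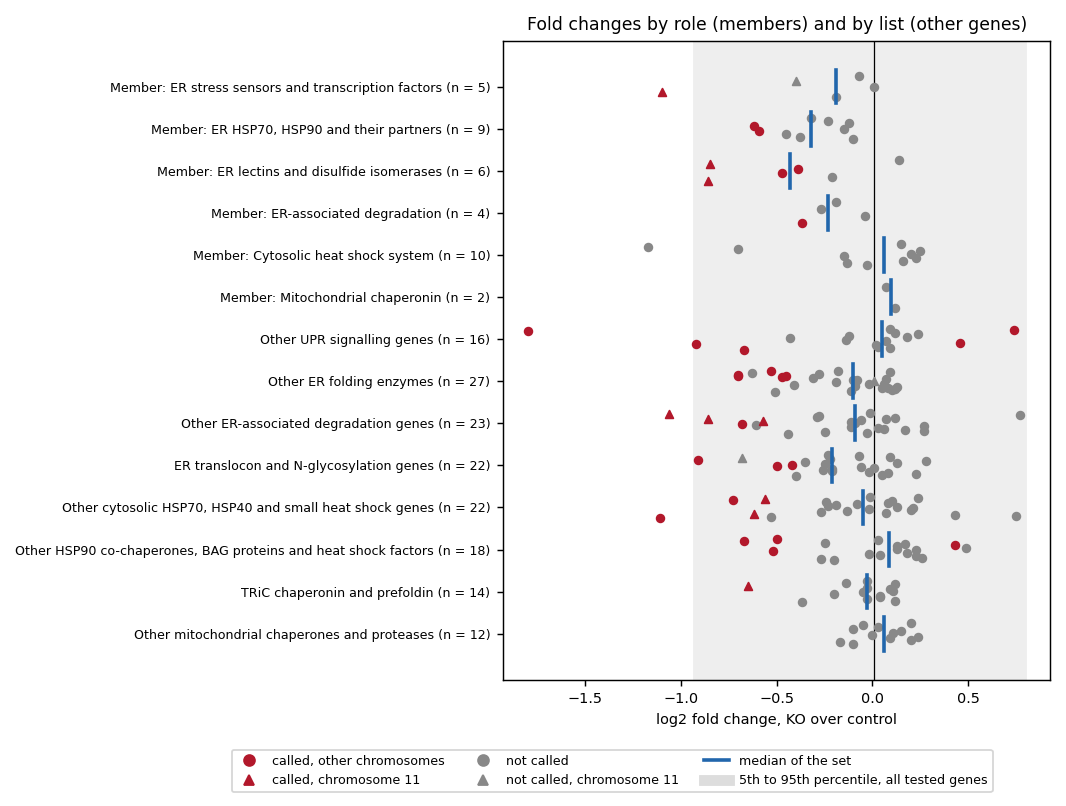
Each point is a gene at its log2 fold change (KO over control), by role for the 36 genes and by list for the other genes, with called genes in red, chromosome 11 genes as triangles, the median of each set as a blue bar and the 5th to 95th percentile of all tested genes in grey. The medians of the 4 ER roles lie between -0.43 and -0.19, and those of the cytosolic and mitochondrial roles at 0.06 and 0.10.

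**Figure D5:**
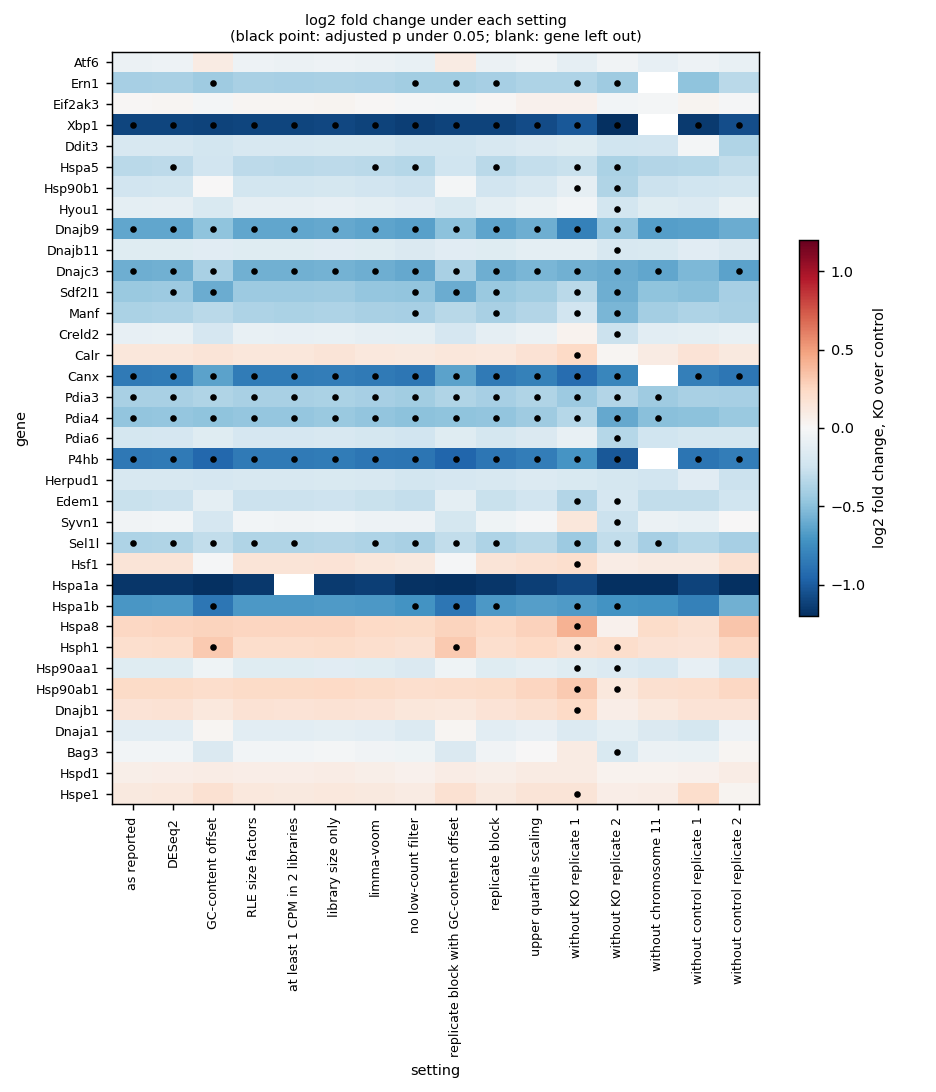
Each cell is the log2 fold change (KO over control) of a gene in a row under a setting in a column, blue for lower and red for higher, with a black point where the adjusted p is under 0.05 and a blank where the gene was left out. Xbp1, Canx and P4hb are called in every column that holds them, and the columns without control replicate 1 and without control replicate 2 hold 3 and 4 calls.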

How the data were processed

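Polyadenylated RNA of 2 control and 2 KAT6A KO libraries was sequenced from a strand-keeping kit, per the labels' protocols. The authors deposited raw read counts per gene symbol, 1 table for each library, and their processing notes name featureCounts and DESeq2. Genome build, aligner and strand setting: not given in the sources used here. Counts were tested with edgeR 4.0.16 (filterByExpr, TMM scaling, robust quasi-likelihood fit on group alone) in R 4.3.3, with Benjamini-Hochberg adjustment over 16112 genes and a threshold of 0.05. CPM are counts per 1e+06 of the library total over the tested genes, after that total was multiplied by its TMM factor. The alternatives were other scalings and filters, DESeq2 1.42.0, limma-voom (limma 3.58.1), the replicate number as a block, an offset for transcript GC content (lowess span 0.3), each library left out, and, chosen after seeing the data, a fit without chromosome 11. The code was tested on simulated counts. Positions, exon lengths and GC content come from GENCODE M21 (GRCm38), which held 97.3% of symbols. Promoter windows come from RefSeq (GRCm38.p6). The members and all lists were chosen with earlier results of these data known. Of each other list the rule named up to 2 called genes in each direction, or the most abundant gene where none was called. The further called genes of these lists were named after their values were seen. A called gene of the degradation list is not reported here. Of the 160 genes in the 8 other lists, 155 were counted and 154 tested.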

Additional observations from a re-analysis of the deposited data

How the results depend on the processing

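Of the results for single members, 455 kept their direction and side of the threshold under the alternatives, 52 crossed to an adjusted p under 0.05, 11 lost it and 17 changed sign. With the replicate number as a block, 1613 genes were called higher and 2147 lower, 13 members lower, and 7 genes of the other lists higher. The numbers are not said to pair the samples, and deviations of same-numbered libraries correlated at 0.173 over 12281 genes with 2 pairs. Without a low-count filter 13 members were lower. With a GC-content offset, alone or with the replicate block, 1 member was higher in each case. Without chromosome 11, 519 genes were higher and 697 lower, 5 members were lower, and 1 gene of the other lists was higher and 12 lower, in a fit that holds fewer genes. Leaving out 1 library in turn gave 254 to 4020 genes higher and 648 to 4400 lower, 3 to 22 members lower and 0 to 7 higher, and 1 to 46 genes of the other lists higher and 11 to 56 lower. The sign changed for Atf6 (0.10 with the GC offset, and 0.10 with the block added), Hsf1 (-0.01 and -0.01) and Dnaja1 (0.02 and 0.02). Eif2ak3 turned to -0.02 with the GC offset, -0.02 with the block added, -0.01 without a filter, -0.02 without chromosome 11, -0.03 without the library labelled KO 2 and -0.01 without control replicate 2. Without the library labelled KO 1, Creld2 was at 0.04, Syvn1 at 0.14 and Bag3 at 0.10 (-0.26, -0.26 and -0.18 without the library labelled KO 2), and without control replicate 2, Syvn1 was at 0.00 and Bag3 at 0.02. The cause was not tested for any of these. Hspa1a had no value under the filter of 1 CPM in 2 libraries, and its 9 counts in each KO library limit its precision.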
